A study of Mus musculus with 2 samples.

Results

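The genes described here encode the proteins that carry a signal through its first steps inside the T cell, directly below the T cell receptor. They are Lck, Fyn, Zap70, Txk, Csk, Lat, Lcp2, Pag1 and Ptprc, 9 of the 21938 protein-coding genes on the nuclear chromosomes in GENCODE M21. A gene was given every peak that shared 1 bp or more with its gene body or with the 50 kb on either side of any of its annotated start sites. By this rule 11 of the 5910 nuclear peaks in the list belonged to these genes. The peaks came from chromatin immunoprecipitation and sequencing with a rabbit monoclonal antibody against Notch1 (clone D1E11). The cells were primary gamma delta T cells, taken from the thymus at postnatal day 0 to 3. The mice were C57BL/6 and wild type. A second library, of input chromatin made without antibody from the same kind of cells, is not analysed here. The stated aim was to map where the intracellular domain of Notch1 sits on chromatin. Since a single Notch1 library was made, no value below carries an error between animals, and no test was made.

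Signalling from the T cell receptor starts with kinases of the Src family. Lck and Fyn phosphorylate the tails of the CD3 chains, Zap70 docks there and phosphorylates the adaptors Lat and Lcp2, and Tec family kinases such as Txk then act on the complex that Lat assembles. Csk holds the Src family kinases inactive by phosphorylating their tail, Pag1 is the membrane adaptor that brings Csk to them, and the phosphatase CD45, made from Ptprc, removes that phosphate. In thymic gamma delta T cells the strength of the receptor signal and Notch signalling are both known to bear on which effector program a cell takes. Notch1 itself reaches DNA through its partner RBPJ, whose binding sites are known for the core TGGGAA.

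Of the 9 genes, 8 had at least 1 peak, and Txk had none. Lck, Fyn, Zap70, Csk, Lat and Ptprc had 1 peak each, Lcp2 had 2 and Pag1 had 3. By the same rule 31.7% of all protein-coding genes had a peak. The rule favours long genes, because it takes in the whole gene body. Genes were therefore put into 5 equal classes by the length of their window. The share was 29.9% in the middle class, which holds Lat, and 35.0% in the next, which holds Lck, Zap70, Txk and Csk. It was 43.8% in the class of longest windows, which holds Fyn, Lcp2, Pag1 and Ptprc. In that last class 15.3% of genes had 2 or more peaks and 6.40% had 3 or more. With 50 kb around start sites alone, without the gene body, it was again 8 genes, beside 30.6%. With 100 kb, Txk was taken in and all 9 had a peak, beside 46.2%. The windows of the 9 genes covered 1.38 Mb together and held 7.99 peaks per Mb, beside 2.83 per Mb in the joined windows of all protein-coding genes. The last peak inside the limit was that of Ptprc, 48.5 kb from a start site. The first ones beyond it lay 57.9 kb from Fyn and 58.8 kb from Lck and were not counted.

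**Figure D1:**
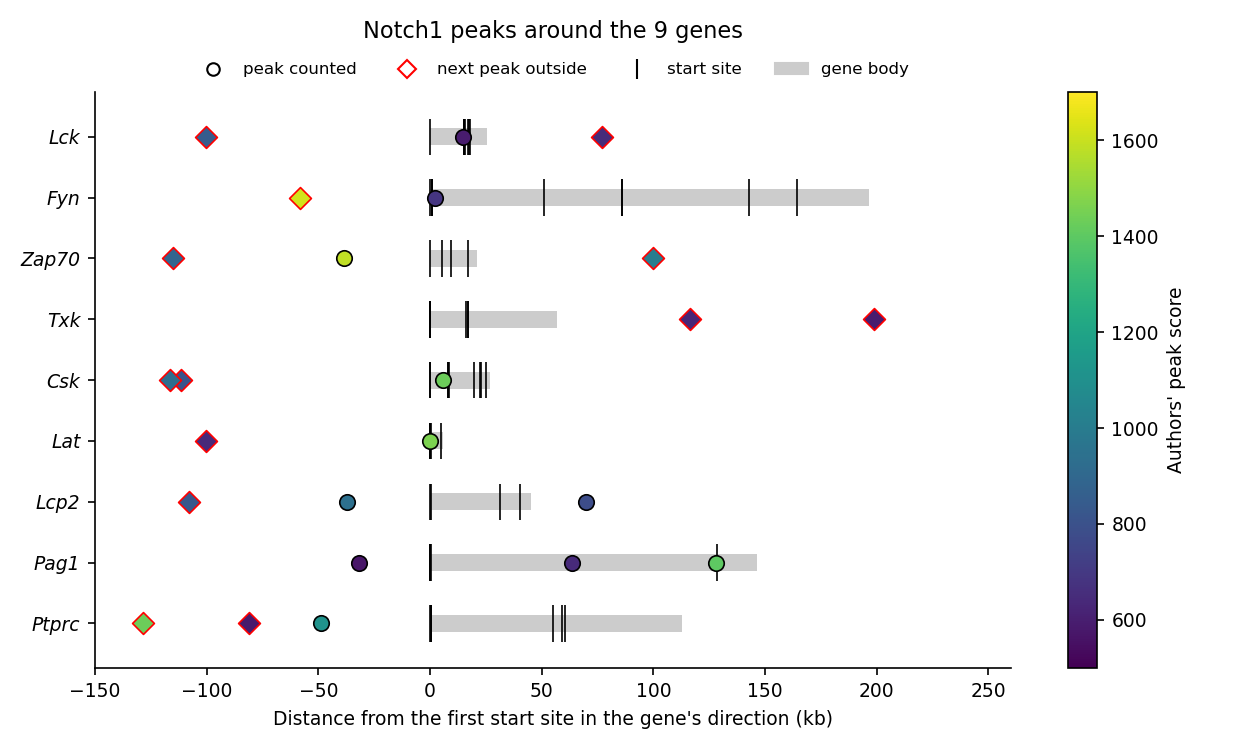
Peaks around each gene, by distance in kb from the first start site in the gene's own direction. Grey bars are gene bodies, black ticks are annotated start sites, round points are the 11 counted peaks and red-edged diamonds are up to 2 next peaks outside the rule where these lie within the axis, filled by the authors' score. The peaks of Lck, Fyn, Csk and Lat and 2 of the 3 of Pag1 overlap the gene body, and the other Pag1 peak and those of Zap70, Lcp2 and Ptprc lie off it.

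The genes fell into 2 kinds by where their peaks lay. Lck, Fyn, Csk, Lat and Pag1 had a peak within 5 kb of a start site, which 8.81% of all protein-coding genes had. The same 5 genes had one within 20 kb (beside 17.7%) and in the gene body (beside 11.6%). Pag1 met the limits of 5 and 20 kb only through the start site of a non-coding transcript. Its peak nearest to a start site of a coding transcript lay 31.5 kb from it. Zap70, Lcp2 and Ptprc had only peaks between 29.8 and 48.5 kb from their start sites, all outside the gene body. Over all protein-coding genes the median distance from a start site to the nearest peak was 118 kb. The nearest peak of Txk, at 99.1 kb, was thus closer than for the median gene, and 45.5% of genes had one at least that close. For Lat, with a peak on a start site, that share was 2.17%, and for Ptprc it was 30.0%.

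**Figure D2:**
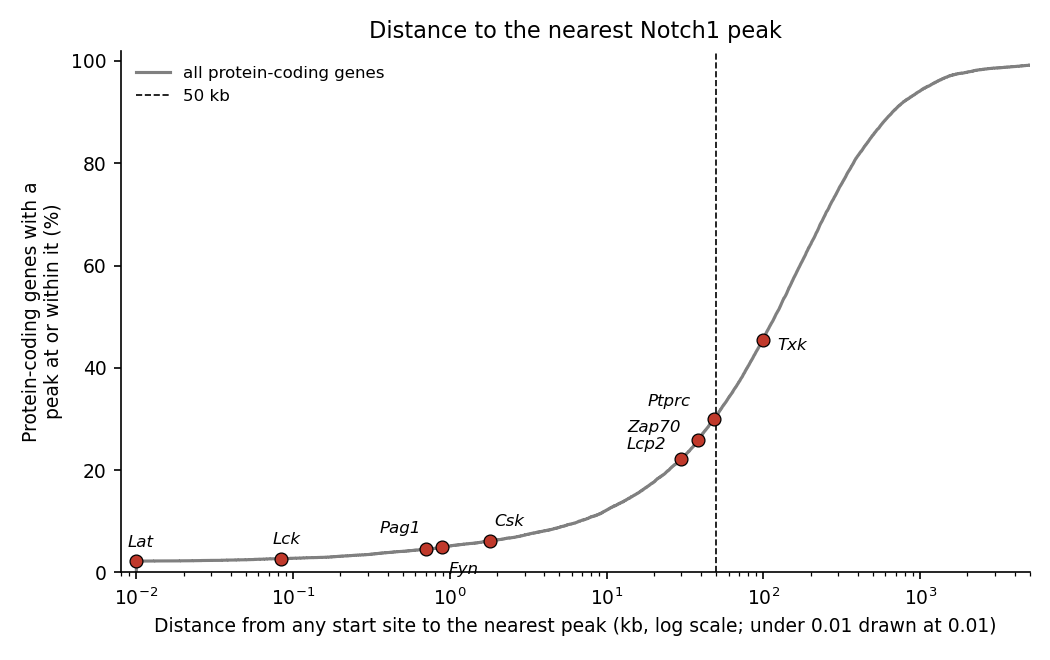
Distance in kb (log scale) from any start site to the nearest peak, against the percentage of protein-coding genes with a peak at or within that distance. The grey line is all protein-coding genes, the red points are the 9 genes and the dashed line is 50 kb; Txk, at 99.1 kb, is the single point to the right of it.

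Lck, the Src family kinase that starts the signal, lies on chromosome 4 from 129548344 to 129573641 on the minus strand (ENSMUSG00000000409.14). It is known to be read from a pair of promoters, a proximal one used mainly in thymocytes and a distal one used also in mature T cells. The peak spanned 129558475 to 129558871 and ended 84 bp upstream of the proximal start site at 129558391. It was 397 bp wide and lay in an intron of the transcript that starts at the distal site, 129573641, which had no peak. RefSeq predicts 3 further Lck start sites inside the peak. The authors' score was 593, and 88.0% of nuclear peaks scored higher. The stretch of this peak nearest to the proximal start site, free of annotated UTRs, is shown on the minus strand because it holds the ETS string CAGGAA (capitals) beside the start site.
Lck proximal promoter, chr4:129558475-129558526: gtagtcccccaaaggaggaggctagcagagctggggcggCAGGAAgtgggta
A RUNX string (TGTGGT) lay further upstream in the same peak, at 129558722. No RBPJ core lay in it, and the nearest one was 551 bp away.

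Fyn, the other Src family kinase of this step, lies on chromosome 10 from 39368855 to 39565381 (ENSMUSG00000019843.14). Its peak spanned 39370700 to 39371245 in intron 1 of the transcript with the longest coding sequence, 897 bp downstream of a start site at 39369803. At 546 bp it was wider than most, with only 248 peaks as wide or wider, and it scored 686. No RBPJ, RUNX or ETS string lay in it, and the nearest RBPJ core was 1289 bp away. Lck and Fyn thus had the same layout, with a single peak of less than the median score of 718 close to a start site. The peak 57.9 kb upstream of Fyn, beyond the limit, was narrow (192 bp) and scored 1617, with 12.4% of its 32-base strings repeated elsewhere in the genome.

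Zap70, the kinase that binds the phosphorylated CD3 chains, lies on chromosome 1 from 36761798 to 36782818 (ENSMUSG00000026117.10). Its peak lay 38.2 kb upstream, from 36723188 to 36723644, and scored 1587, the highest of the 11. It overlapped a coding exon of the gene 4933424G06Rik, whose start site was nearer, at 8.64 kb, and the windows of 4 other protein-coding genes, that one included, also took it in. The central 300 bp are shown because this peak scored highest, with the RUNX string in capitals.
Zap70 upstream peak, plus strand, chr1:36723267-36723566: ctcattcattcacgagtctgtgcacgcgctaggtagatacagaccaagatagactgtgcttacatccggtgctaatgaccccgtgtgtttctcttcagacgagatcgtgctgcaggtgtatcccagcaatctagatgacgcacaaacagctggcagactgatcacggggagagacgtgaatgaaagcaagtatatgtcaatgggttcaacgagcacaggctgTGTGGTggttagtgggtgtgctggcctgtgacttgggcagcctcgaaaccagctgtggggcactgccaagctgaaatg
A second RUNX string lay in the outer part of the peak, at 36723619. The peak also held 3 E protein strings (CAGCTG or CAGGTG) and no RBPJ core, the nearest being 79 bp away.

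Txk, a Tec family kinase, lies on chromosome 5 from 72695978 to 72752777 (ENSMUSG00000054892.14). The peak nearest to it spanned 72636412 to 72636787, scored 627 and lay 1.06 kb from a start site of Cnga1. Tec, another kinase of the family, had no peak in its window either, with the nearest 119 kb away, and neither had Btk or Bmx. Bmx was added after values were seen.

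Ptprc encodes the receptor phosphatase CD45 and lies on chromosome 1 from 138062861 to 138175708 on the minus strand (ENSMUSG00000026395.16). Its peak lay 48.5 kb upstream of the outermost start site, from 138224167 to 138224494, in intergenic sequence, and scored 1117.5. It had the lowest GC content of the 11, at 34.1%, which 11.6% of nuclear peaks did not exceed. An RBPJ core at 138224497 began 3 bp beyond its edge. The stretch shown on the minus strand runs 23 bp past that edge so that the core can be seen, read here as TTCCCA. A RUNX string (as ACCACA) follows it, and further on an ETS string (as TTCCTG), all in capitals.
Ptprc upstream peak, chr1:138224218-138224517: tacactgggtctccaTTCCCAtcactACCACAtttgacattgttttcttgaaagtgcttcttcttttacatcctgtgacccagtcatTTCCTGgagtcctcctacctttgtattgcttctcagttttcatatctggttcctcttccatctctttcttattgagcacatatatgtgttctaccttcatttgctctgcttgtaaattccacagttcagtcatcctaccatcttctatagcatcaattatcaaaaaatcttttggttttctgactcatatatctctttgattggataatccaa
This peak was also the one of the 11 with an AP-1 string (TGANTCA), 1 match at 138224244, beside 11.3% of all peaks.

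Csk, the kinase that inactivates Lck and Fyn, lies on chromosome 9 from 57626646 to 57653631 on the minus strand (ENSMUSG00000032312.7). Its peak spanned 57647449 to 57648119 in an intron, 1796 bp upstream of an internal start site at 57645653, and scored 1429.7. It was the widest of the 11 at 671 bp. Of its sequence 34.3% was soft-masked as repeat and 17.0% of its 32-base strings occurred more than once in the genome, the highest share of the 11. Runs of at least 5 copies of CA or CT, read on either strand, made up 122 bp of it. The central 300 bp are shown on the minus strand so that these runs can be seen; no RBPJ, RUNX or ETS string lay in the peak and nothing is in capitals.
Csk intronic peak, chr9:57647635-57647934: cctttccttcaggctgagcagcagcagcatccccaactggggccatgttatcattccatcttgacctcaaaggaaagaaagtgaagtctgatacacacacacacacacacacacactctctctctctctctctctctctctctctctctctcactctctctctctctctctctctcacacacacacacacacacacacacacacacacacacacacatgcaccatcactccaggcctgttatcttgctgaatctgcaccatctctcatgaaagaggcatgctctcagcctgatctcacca
Without peaks soft-masked over 20% or more of their length, Csk had none and 7 of the 9 genes had one, beside 22.4% of all genes. The part of this repeat in the score was not tested. Over the whole list 39.8% of peaks were soft-masked over 20% or more of their length, as were 3 of these 11, those of Csk, Lcp2 (downstream) and Pag1 (upstream).

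Pag1, the membrane adaptor that recruits Csk, lies on chromosome 3 from 9687479 to 9833679 on the minus strand (ENSMUSG00000027508.15), and no other protein-coding gene's window took in its peaks. The peak of highest score (1401) spanned 9705703 to 9705891 in intron 3, 701 bp upstream of the start site of a non-coding Pag1 transcript at 9705002. The next spanned 9769991 to 9770403 in intron 1, 63.0 kb downstream of a start site, and scored 644. The last lay 31.5 kb upstream of the gene, from 9865143 to 9865530, and scored 569. Both intronic peaks held 1 RBPJ core, and in both the core was part of the longer form GTGGGAA. These were the only 2 of the 11 peaks with a core inside. Both are shown on the minus strand for that reason, with the core (TGGGAA or, reversed, TTCCCA) and an ETS string in capitals.
Pag1 intron 3, chr3:9705703-9705891: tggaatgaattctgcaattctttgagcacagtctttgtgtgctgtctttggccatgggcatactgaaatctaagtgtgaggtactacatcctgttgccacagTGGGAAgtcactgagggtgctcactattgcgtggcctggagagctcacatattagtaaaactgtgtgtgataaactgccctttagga
Pag1 intron 1, chr3:9770048-9770347: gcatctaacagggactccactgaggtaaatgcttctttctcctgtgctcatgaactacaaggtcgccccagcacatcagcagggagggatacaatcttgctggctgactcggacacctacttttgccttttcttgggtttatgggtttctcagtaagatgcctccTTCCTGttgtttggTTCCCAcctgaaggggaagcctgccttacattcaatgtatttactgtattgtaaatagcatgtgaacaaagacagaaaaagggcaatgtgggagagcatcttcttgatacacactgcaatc
In the second of these the core lies 8 bases from the ETS string, written here as TTCCTG. The upstream peak held no core, with the nearest 70 bp away.

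Lat, the membrane scaffold that Zap70 phosphorylates, lies on chromosome 7 from 126363824 to 126369570 on the minus strand (ENSMUSG00000030742.7). Its peak spanned 126369226 to 126369639, over the start of the gene with its first coding exon, and scored 1464. It was the most GC-rich of the 11, at 66.2%, above the median of 43.9% over all peaks. Nfatc2ip and Spns1 also had it in their windows, but the nearest start site was that of Lat. The stretch around the outermost start site is shown on the minus strand because it holds a RUNX string (as ACCACA) between 2 ETS strings (as TTCCTG), in capitals.
Lat promoter, chr7:126369542-126369589: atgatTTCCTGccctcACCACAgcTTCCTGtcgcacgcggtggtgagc
The RUNX string and the nearer ETS string were 2 bp apart. An RBPJ core at 126369644 began 5 bp beyond the edge of the peak.

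Lcp2 encodes the cytosolic adaptor that joins the Lat complex and lies on chromosome 11 from 34046920 to 34092295 (ENSMUSG00000002699.13). One peak lay 37.0 kb upstream, from 34009718 to 34009969, and scored 937. The other lay 29.8 kb downstream of an internal start site and beyond the end of the gene, from 34116801 to 34117086, and scored 781. The upstream peak overlapped the body of the protein-coding gene 4930469K13Rik, off its exons. Each of the Lcp2 peaks was nearer to a start site of another gene, Kcnip1 at 16.6 kb (upstream peak) and 4930469K13Rik at 18.2 kb (downstream peak). Both are shown whole, on the plus strand, because together they hold 5 ETS strings (CAGGAA, or TTCCTG where reversed), in capitals with the RUNX string.
Lcp2 upstream peak, chr11:34009718-34009969: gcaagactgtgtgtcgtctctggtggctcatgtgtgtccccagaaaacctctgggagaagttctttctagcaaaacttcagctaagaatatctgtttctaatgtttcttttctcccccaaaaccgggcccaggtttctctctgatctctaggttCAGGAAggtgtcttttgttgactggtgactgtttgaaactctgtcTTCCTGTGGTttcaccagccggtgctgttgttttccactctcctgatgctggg
Lcp2 downstream peak, chr11:34116801-34117086: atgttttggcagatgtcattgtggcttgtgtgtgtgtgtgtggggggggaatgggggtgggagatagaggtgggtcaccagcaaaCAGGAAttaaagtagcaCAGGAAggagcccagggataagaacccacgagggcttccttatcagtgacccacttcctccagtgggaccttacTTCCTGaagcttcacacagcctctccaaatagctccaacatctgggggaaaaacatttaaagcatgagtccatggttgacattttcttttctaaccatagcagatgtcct
In the upstream peak an ETS string and the RUNX string overlap, which makes 1 run of capitals. A RUNX string overlapping or within 10 bp of CAGGAA was found in 110 of all nuclear peaks (1.86%), and in 2 of the 11, those of Lat and Lcp2. That spacing was looked for after the sequences had been seen. No RBPJ core lay in either Lcp2 peak, and the nearest were 685 and 1530 bp away.

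Scores across the 11 peaks ranged from 569 to 1587, with a median of 937, beside 718 over all nuclear peaks. At or above the upper quartile of the list (904) lay 6 of the 11, 1 each for Zap70, Csk, Lat, Lcp2, Pag1 and Ptprc, so 6 of 9 genes had such a peak beside 10.8% of all protein-coding genes. At or above the median score it was the same 6 genes, beside 19.3%. The score moved with the width of a peak. Among the 1241 peaks narrower than 300 bp Spearman's rho of width and score was -0.82 across peaks of this 1 library, a description with no test. The 162 peaks narrower than 200 bp had a median score of 1463, and all of them lay in the upper quartile. The Pag1 peak in intron 3, at 189 bp, was one of these. Each peak was therefore also set beside the peaks whose width differed by no more than 5%. Lat then scored at or above 99.3% of 1522 such peaks, Ptprc at or above 97.5% of 766 and Zap70 at or above 97.4% of 195. The narrow Pag1 peak stood above 67.5% of 80, the Lcp2 peaks above 60.2 and 58.3%, and Csk above 45.5% of 33. Lck (20.5%), the upstream Pag1 peak (13.0%) and Fyn (5.88%) stood low among peaks of like width. In the upper quartile for their width were thus the peaks of Zap70, Lat and Ptprc, 3 of the 9 genes, beside 9.84% of all protein-coding genes. That comparison was added after the relation of score and width had been seen.

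**Figure D3:**
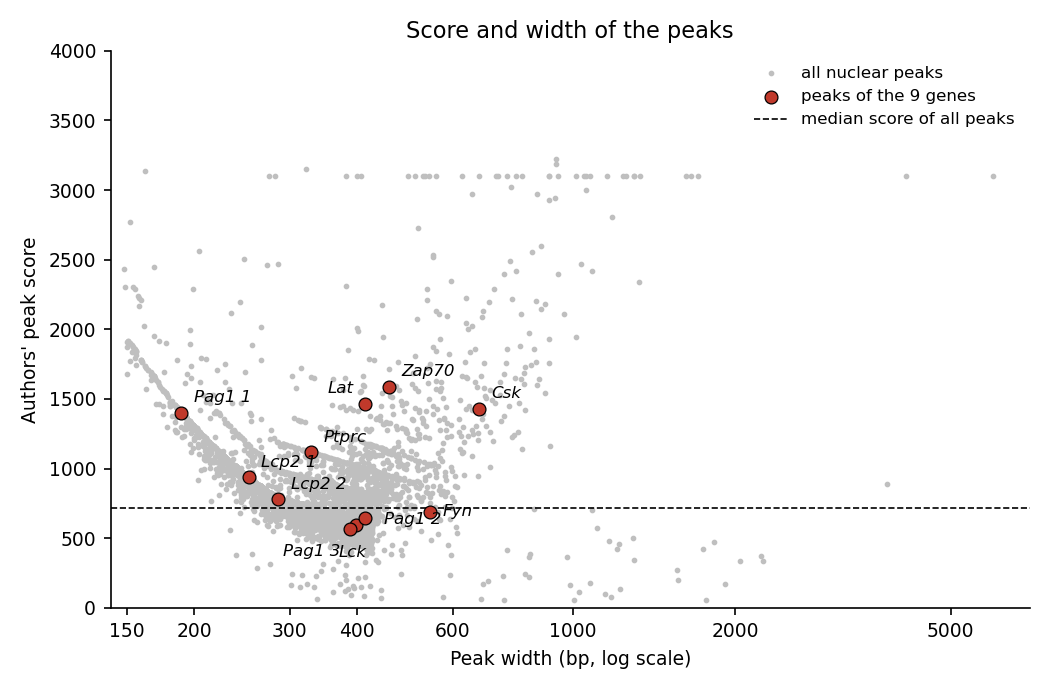
Authors' score against peak width (bp, log scale) for all nuclear peaks (grey) and the 11 peaks of the 9 genes (red), numbered along the chromosome where a gene has several. Below 300 bp the grey points fall along bands in which narrower peaks score higher; the narrow Pag1 peak and both Lcp2 peaks lie on the lowest band, and Lat, Zap70 and Ptprc lie above the bulk of peaks of their width.

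The sequence strings were then counted over all 11 peaks, on both strands, beside all 5910 nuclear peaks. The RBPJ core was in 2 of 11, beside 29.5% of all peaks, and the longer GTGGGAA in the same 2, beside 7.68%. With cores up to 10 bp outside a peak counted as well, which adds Lat and Ptprc, it was 4 of 11 beside 31.1%. That margin was not planned beforehand, and the cores of Lat and Ptprc lay 5 and 3 bp beyond the edge. RUNX strings (TGTGGT or TGCGGT) were in 5 of 11, beside 30.5%, and the ETS string CAGGAA in 6 of 11, beside 34.0%. E protein strings were in 5 of 11, beside 33.4%. The ETS string CCGGAA, the E-box CACGTG and the STAT string were in 0 of 11, beside 7.39, 5.62 and 11.4%. Strings of GATA factors, spelled AGATAA, were in 3, beside 20.7%. Those of TCF and LEF, spelled CTTTGAA or CTTTGAT, were in 2, beside 15.4%, and those of SP and KLF factors, spelled GGGCGG, were in 3, beside 11.3%. Peaks differ in width, so the central 200 bp were also compared. There RUNX strings were in 3 of 11 beside 18.8% of all peaks, CAGGAA in 4 beside 20.5% and the RBPJ core in 2 beside 17.0%. E protein strings were there in 3 beside 20.2%, and AP-1 in 1 beside 6.26%. Strings of GATA factors were left in 1, beside 12.4%, those of TCF and LEF in 0, beside 8.05%, and those of SP and KLF in 1, beside 7.43%. Of 11 peaks, 1 peak is a share of 9.09%, and a match of letters does not show that a factor binds.

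**Figure D4:**
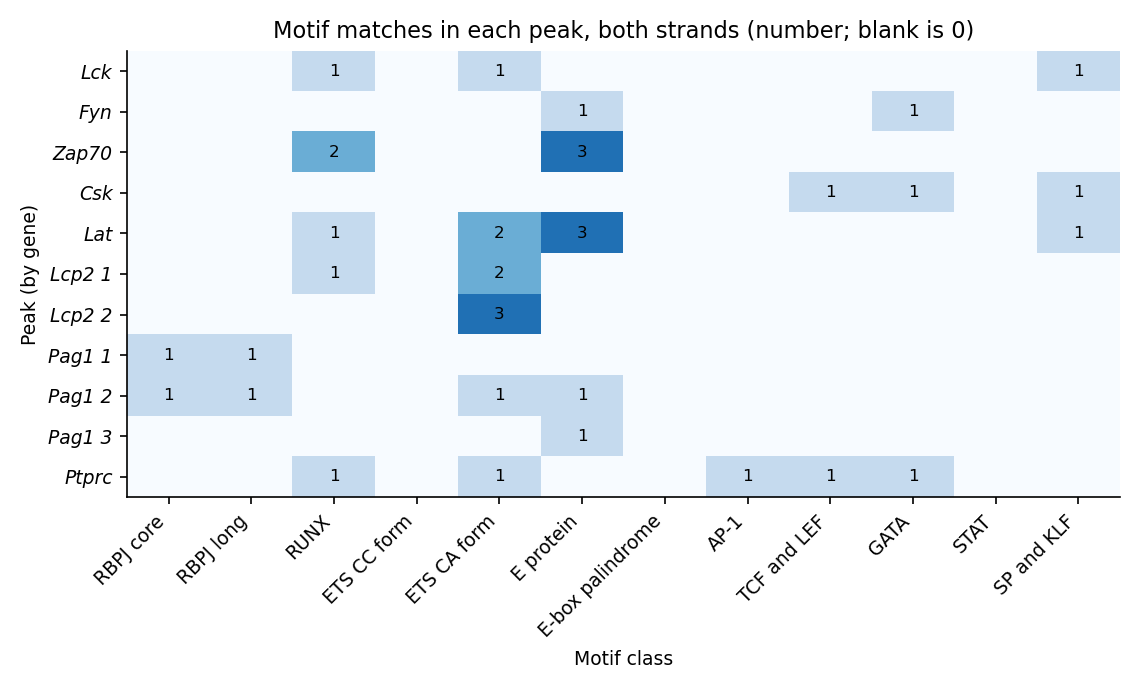
Number of matches to each motif class (columns) in each of the 11 peaks (rows, numbered along the chromosome where a gene has several); the CC and CA forms of ETS are CCGGAA and CAGGAA. RBPJ matches are confined to 2 Pag1 peaks, and CAGGAA matches are found in 6 of the 11 peaks.

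Other genes of T cell receptor signalling, a list of 50 kinases, adaptors, phosphatases and exchange factors without the 9 above, had a peak by the same rule in 26 cases, beside 31.7% of all protein-coding genes. Most of the 50 genes fell in the upper classes of window length, where that share was 35.0% and 43.8%. Within 5 kb of a start site 9 of the 50 had a peak, beside 8.81% of all protein-coding genes. The highest score among them was at Src, the founding member of its kinase family, with a peak in an intron at 7.64 kb (2399.5). Prkcq, the protein kinase C of T cells, followed with an intronic peak at 41.4 kb (1887), Blk, a Src family kinase of gamma delta T and B cells, with one 690 bp from a start site (1768), and Sh2d2a, a T cell adaptor, with one on its start (1762). The best peak of the membrane adaptor Sit1 (1450.3) lay 9.21 kb from its own start site, nearer to Ccdc107. Map4k1 (1288), Grap (1008), Vav1 (989) and Sh2d1a (949.6) had peaks between 13.5 and 49.2 kb away, outside the gene. Each of these peaks was nearer to a start site of another gene. The scores in this paragraph are not set against width. The Prkcq peak was narrower than 200 bp, and those of Map4k1, Vav1 and Sh2d1a were narrower than 300 bp. In the upper quartile of score for their width were peaks of 4 of the 50 genes, beside 9.84% of all protein-coding genes. Of the Src family, Lck, Fyn, Src and Blk had peaks, and Yes1, Lyn and Fgr had none. Syk, the relative of Zap70, had 1 peak, with a score of 725.

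The cell type label could not be checked by expression, since a peak list does not measure it. Of 8 gamma delta T cell markers 2 (Blk and Cd163l1) had a peak within 5 kb, beside 8.81% of all protein-coding genes. So had 1 of 7 alpha beta thymocyte markers (Trac) and 0 of 4 each for B cells, myeloid cells and thymic stroma. With lists this short, these counts do not tell the cell types apart.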

How the data were processed

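The series holds 1 Notch1 library and 1 input library, and the Notch1 library's peak list was used. Per the labels' protocols, cells were fixed in 0.5% formaldehyde for 5 min and PCR ran for 18 cycles. Bowtie 1.0.0 and SAMtools 0.1.18, with build mm10, are named in the submitters' processing notes. The deposited list has no header and gives position, a name starting with MACS and the authors' score, used here only to describe and rank peaks within the list. Read depth is unknown, so no interval could be set, and the peak caller's settings and its use of the input are not stated in these sources. Duplicate reads cannot be seen in a peak list.

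Starts were converted to count from 1. Of 5913 peaks, 3 mitochondrial ones were left out. Genes and start sites are GENCODE M21, sequences the RefSeq copy of GRCm38.p6, read with pysam 0.24.0. Printed stretches were chosen to avoid UTRs of either annotation, but that of Lat crosses an annotated start site and holds transcribed sequence. Repeats were measured as soft-masked bases and as 32-base strings found more than once on the chromosomes, both checked on simulated data, and motifs as exact strings. Named genes were all 9 members, the nearest genes of their peaks and the 10 other listed genes of highest score, except that some genes are not reported here. The members and lists were chosen with earlier results of these data known. No test was made; counts are set beside the share over all genes or peaks.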

Additional observations from a re-analysis of the deposited data

How the results depend on the processing

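The count of 8 of the 9 genes with a peak was the same with 50 kb around start sites alone, with peak midpoints and with start sites of protein-coding transcripts only. It was 9 with 100 kb, which took in Txk, and 7 without peaks soft-masked over 20% or more, which dropped Csk. It fell to 5 within 5 kb of a start site, within 20 kb and in the gene body alone, losing Zap70, Lcp2 and Ptprc each time. At 5 and 20 kb Pag1 was kept only by the start site of a non-coding transcript. At or above the median score 6 genes had a peak. The count of 11 peaks became 5 within 5 kb, 6 in the gene body, 7 from the median score up and 6 in the upper quartile. The 26 other receptor signalling genes with a peak became 9 within 5 kb and 10 in the upper quartile. In the upper quartile for width, added after seeing the data, 3 genes, 3 peaks and 4 of the other 50 genes were left. Of all protein-coding genes 9.84% had such a peak. Each setting that lowered a count leaves fewer peaks or less sequence by construction. With 20% or more of repeated 32-base strings as the limit, 0 of the 11 peaks counted as repeats, in place of 3 by soft-masking. The nearest start site was the member's own for 8 peaks, and for 6 when genes of all types were used. No paired analysis was possible because the result comes from no test and from 1 library. Without counts or an input profile, depth and background under each peak are not known.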

Other observations

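The promoters of these genes, from 250 bases before to 50 after a RefSeq start (build GRCm38.p6), were scanned for the same strings, whether or not they held a peak. The table gave 14 promoters for 8 of the genes, some of them overlapping, and none for Pag1. Only 2 of the 14, that of Lat and the proximal one of Lck, overlapped a peak. The ETS string CAGGAA was in 10 of the 14, beside 29.0% of 21238 promoters of protein-coding genes, and RUNX strings were in 5, beside 21.6%. An RBPJ core was in 4, beside 24.5%, namely the promoters of Lat and Lcp2, the distal one of Lck and the outermost one of Zap70. The promoters of Lcp2, the distal one of Lck and that of Zap70 thus held a core and no peak, and the proximal one of Lck held a peak and no core. SP and KLF strings were in 3 of the 14, beside 46.2%. These are descriptions of letters in fixed windows, with no test, chosen after the peaks had been seen.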
